A study of Mus musculus with 4 samples.

Results

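The comparison described here sets CD4+ T cells that lack *Cic* (cKO) against CD4+ T cells that carry it (WT), both on day 3 of stimulation with antibodies against CD3 and CD28. Its members are all named loci of the deposited tables, taken from 1 library for each genotype and joined by locus identifier. Of 31171 loci, 23906 carry a gene name, and these hold 23339 different names. Of these, 10895 had an FPKM of at least 1 in either day 3 library and are called measured. FPKM is the number of fragments counted on a transcript, divided by its length and by the total of mapped fragments.

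The WT cells came from *Cic* f/f mice, in which both copies of *Cic* are flanked by loxP sites and intact. The cKO cells came from *Cic* f/f; *Cd4-Cre* mice, in which the *Cd4* promoter drives Cre, so that αβ T cells as a whole, CD8+ and regulatory T cells included, lose the floxed *Cic* segment. The cells of both groups were taken from the spleen of C57BL/6J mice labelled as 10 to 12 weeks old, sorted as CD4+ cells and kept for 3 days on plate-bound antibodies, and the series also holds 1 unstimulated (day 0) library of each genotype. The labels give a gate on cells high in CD44 under the name naïve, while the study's methods name a sort for low CD44. How many mice gave a library is not stated in the labels, and since every condition is a single library, differences carry no replicate error and no p-values are given.

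Capicua (CIC) is a DNA-binding protein of the HMG box family that represses transcription. It binds a short octamer in the regulatory regions of its targets, which include the PEA3 group of ETS transcription factors (*Etv1*, *Etv4* and *Etv5*), and signalling through receptor tyrosine kinases, RAS and ERK relieves the repression. Many of its known targets are feedback inhibitors of that same pathway, such as the Sprouty, SPRED and DUSP proteins. In T cells, engagement of the T-cell receptor (TCR) activates RAS and ERK, so that CIC lies downstream of the signal used here to activate the cells.

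Differences are given as log2((cKO FPKM + 0.1)/(WT FPKM + 0.1)), and a gene is called higher or lower in cKO where this log2 ratio was over 1.5 in size. By this size rule 81 genes (0.743% of those measured) were higher in cKO and 132 (1.21%) were lower. The median log2 ratio of all measured genes was -0.05, the quartiles were -0.23 and 0.14, and 57.7% lay below 0. Within 1.5-fold either way lay 88.5% of the genes. Genes of small RNAs (microRNAs, small nucleolar and small nuclear RNAs), which a poly(A) protocol recovers poorly, made up 127 of the measured genes but 21 of those higher and 15 of those lower. Without them, 60 genes were higher and 117 lower, and all counts of single groups below are of the remaining genes unless said otherwise. A locus was left out only where all its names are standard symbols of small RNAs, so some loci that hold small RNAs remain in these counts.

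**Figure D1:**
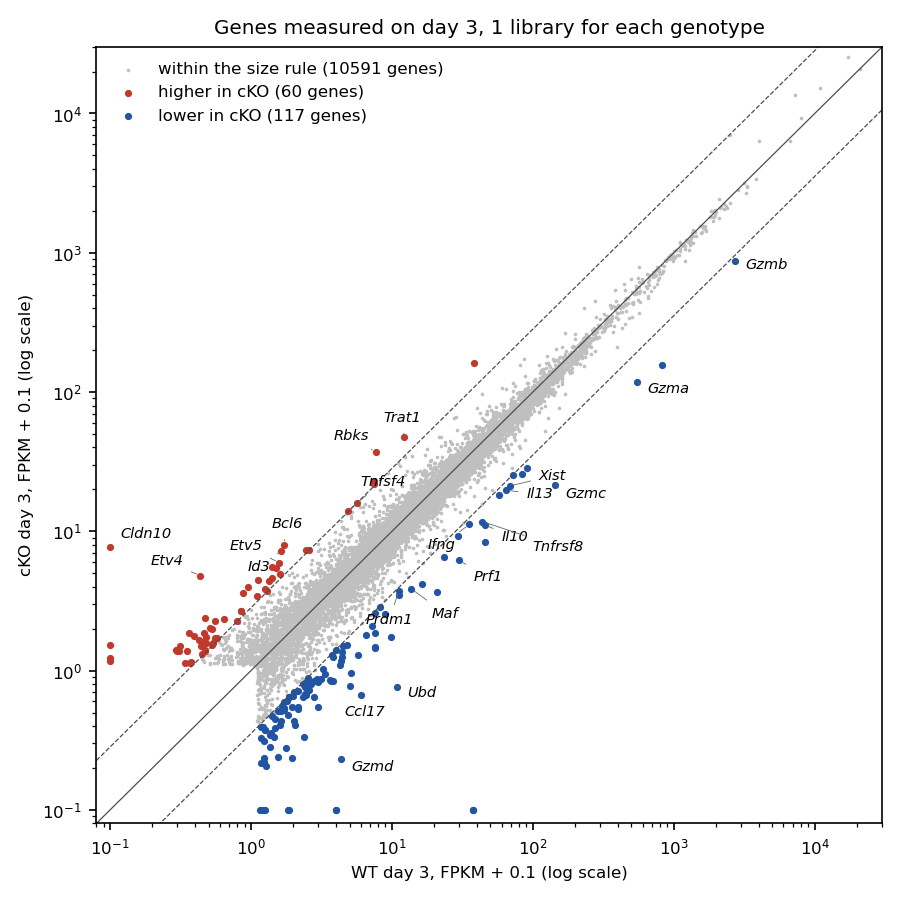
FPKM plus 0.1 of each measured gene other than small RNA genes in the WT day 3 library (x axis) and the cKO day 3 library (y axis), both on log scales. The solid line marks equal values and the dashed lines a log2 ratio of 1.5 either way. Of the genes drawn, 60 lie above the upper line (red) and 117 below the lower line (blue), with *Gzmb* the most abundant of the latter at 873 FPKM in cKO and 2712 in WT.

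The low end of the tables shows how many fragments stand behind a value. For genes with a single annotated coding transcript, FPKM values below 6 fragments were whole multiples, within 0.1, of the value of 1 fragment in 79.4% of 724 genes of the WT library and 78.3% of 645 genes of the cKO library. The value of 1 fragment was picked in each library to make this share largest, so the share is no separate check of it. A fragment was worth 0.115 FPKM on a transcript of 1 kb in WT and 0.108 in cKO. This would make the cKO library the slightly deeper one if values were scaled by mapped fragments alone. Fragment numbers given below come from these steps and the median transcript length, and are estimates, and intervals made from them are exact 95% Clopper-Pearson intervals that cover counting error only. Of the 60 genes higher in cKO, 40 had a transcript length, 28 of these had at least 20 fragments in either library, and 34 had an interval that left out 0. Of the 117 genes lower in cKO, 98 had a length, 73 had at least 20 fragments and 92 an interval that left out 0. Both sets were picked by the ratio of these same values, so an interval that leaves out 0 is no separate support for a call. The same holds for the intervals of single called genes below. Calls were most frequent where levels were low: 4.6% of 2737 genes with a higher FPKM between 1 and 5 were past the size rule, against 0.629% of 4136 genes between 5 and 20 and 0.678% of 738 genes at 100 or above.

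Both libraries held the transcripts of T cells. All 16 genes of a T-cell identity list were measured and lay within the size rule, with a median log2 ratio of 0.13. *Cd4*, the co-receptor of helper T cells, stood at 174 FPKM in cKO and 86.3 in WT, a log2 ratio of 1.01, and *Cd8a*, which marks the other T-cell lineage, at 3.59 and 8.36. On day 0 *Cd4* was already apart, at 242 in cKO and 135 in WT (0.84). Transcripts of other cells were present at low levels and unevenly. Of 10 measured erythroid genes 7 were lower in cKO, such as *Car1* (1.63 and 9.7) and *Klf1* (0.306 and 1.94), while *Gata1* (4.18 and 4.49) and *Alas2* (9.3 and 7.95) were near equal. Of 11 measured genes that mark basophils, mast cells or eosinophils, 3 were lower in cKO and all 11 had ratios below 0. The FPKM of the 19 genes found summed to 29.2 in cKO and 84.2 in WT, of which *Akr1c18* made up 8.28 and 45.6. *Akr1c18* was almost absent on day 0, at 0.108 in cKO and 0.265 in WT. The defining mast cell and basophil proteases *Cpa3* (5.03 and 5.07) and *Mcpt8* (4.71 and 5.13) were near equal, and *Tpsab1*, *Tpsb2* and *Mcpt4* were listed at 0 in both. Of 24 macrophage and monocyte genes 5 were measured, with 2 ratios above 0 and a median of -0.22. The list summed to 24.9 in cKO and 53.9 in WT, of which *Lgals3*, a gene whose level was above that of day 0 in both genotypes, made up 15.7 and 43.5. Sums over 14 B-cell genes were 68.3 and 54.2.

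*Xist*, the RNA of the inactive X chromosome, stood at 21.1 in cKO and 68.3 in WT, and the Y-linked genes *Ddx3y* (19.8 and 10.0), *Eif2s3y* (40.6 and 22), *Uty* (8.46 and 4.4) and *Kdm5d* (7.28 and 2.47) the other way round, so that both libraries held female and male RNA in different proportions. The day 0 libraries had the same order, with *Xist* at 17.2 in cKO and 47.6 in WT. The median log2 ratio was -0.08 over 331 measured genes of the X chromosome and -0.05 over 10432 genes of the autosomes. The part of the sex of the mice or of other cells in the differences described below was not tested. With sex-linked genes and the markers of other cells left out, 80 genes were higher and 118 lower, small RNA genes included.

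*Cic* itself stood at 12.2 FPKM in cKO and 17.8 in WT, and at 24.9 and 25.4 on day 0. The deposited locus spans the whole gene and overlaps another named gene, so this value is no check of the deletion. The partners of CIC *Atxn1* (11.0 and 10.6) and *Atxn1l* (5.34 and 6.15), and *Rfwd2* (13.4 and 13.0), which encodes the ubiquitin ligase COP1 that degrades PEA3 proteins, were near equal.

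The PEA3 group held the clearest difference among genes tied to CIC. *Etv4* (chromosome 11, 101769594 to 101785310, read as GRCm38) had 4.7 FPKM in cKO against 0.337 in WT, or about 98 and 7 fragments. This was a log2 ratio of 3.46, with a counting interval from 2.62 to 5.07. *Etv5* (chromosome 16, 22381250 to 22439573) had 5.85 in cKO and 1.49 in WT, a log2 ratio of 1.90 with an interval from 1.52 to 2.48. The third member, *Etv1*, stayed below an FPKM of 1 in both, at 0.241 and 0.0931. Before stimulation the cKO levels were 2.68 for *Etv4* and 5.95 for *Etv5*, against 0.278 and 0.706 in WT. Stimulation was thus accompanied by nearly the same *Etv5* level in cKO (log2 ratio of day 3 over day 0, -0.02) and by a higher one in WT (0.98), and the gap between genotypes was 2.91 on day 0 and 1.90 on day 3. None of 15 other measured ETS genes was past the size rule, and their median was 0.06, with *Elk4* at 39.4 and 25.5 the highest ratio (0.63).

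The feedback inhibitors of the RAS and ERK pathway lay within the size rule. *Spred1* had 14.7 in cKO and 7.18 in WT (1.02), *Spred2* 10.3 and 6.17 (0.73), *Spry4* 1.01 and 0.408 (1.13) and *Spry1* 5.93 and 5.24 (0.18). *Spry2* went the other way, at 2.13 and 5.28 (-1.27). On day 0 the ratios of *Spry4* (2.77) and *Spred1* (2.25) were past the size rule, at 2.19 and 0.235 for *Spry4* and at 18.7 and 3.84 for *Spred1*. Of 11 measured DUSP phosphatases, which remove the activating phosphates of MAP kinases, none was past the size rule on day 3 and the median was -0.13. *Dusp4* had 52.2 in cKO and 35.0 in WT (0.58) and *Dusp6* 22.7 and 15.6 (0.53), whereas their day 0 levels were 20.6 and 4.99 (*Dusp4*) and 35.2 and 13.2 (*Dusp6*).

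The CIC octamer was searched on both strands in 300-base promoters of RefSeq genes (GRCm38.p6, 250 bases before to 50 after the start site), as TGAATGAA, TCAATGAA, TGAATGGA and TCAATGGA. It was in 3.84% of all 32851 promoters. Counted by gene, with a match in any promoter of the gene, it was in 1203 of all 27025 genes (4.45%) and in 214 of 8039 measured genes (2.66%). It was in 4 of 43 genes higher in cKO that had a promoter in the table (9.3%) and in 6 of 80 genes lower in cKO (7.5%). Of 18 genes of the CIC axis looked up, 13 had a promoter there and 2 held the octamer, *Dusp6* and *Spry2*. The windows below show the octamer in capitals in the 5′ to 3′ direction of the gene, for both of these and for *Trat1* (higher in cKO) and *Prf1* (lower), described further on. A match is a letter match only and says nothing of binding.
*Dusp6*, chr10:99263183-99263238 (+): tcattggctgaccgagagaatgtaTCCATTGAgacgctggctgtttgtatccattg
*Spry2*, chr14:105896842-105896897 (-): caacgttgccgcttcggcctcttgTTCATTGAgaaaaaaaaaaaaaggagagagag
*Trat1*, chr16:48772271-48772312 (-): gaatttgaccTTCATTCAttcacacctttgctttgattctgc
*Prf1*, chr10:61297774-61297829 (+): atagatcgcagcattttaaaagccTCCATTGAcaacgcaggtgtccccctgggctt
The first base of the match lay 24 bases before the start site in *Dusp6*, where a further copy starts 1 base after that site, 54 before it in *Spry2*, 240 before it in *Trat1* and 38 before it in *Prf1*. *Etv5*, *Bcl6* and *Id3* had no match in these windows. *Etv4*, *Dusp4* and *Spry4* were among the genes without a promoter there and were not searched.

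Among transcription factors of T-cell fate, 2 were higher and 2 lower in cKO by the size rule. *Bcl6*, which encodes the repressor that specifies follicular helper T (TFH) cells, had 7.89 FPKM in cKO against 1.61 in WT, or about 249 and 48 fragments, a log2 ratio of 2.22 with a counting interval from 1.83 to 2.76. *Id3*, an inhibitor of E proteins, had 7.17 and 1.54, or about 76 and 15 fragments, a log2 ratio of 2.15 with an interval from 1.44 to 3.16. Both genes differed little between genotypes on day 0, at 9.32 in cKO and 6.7 in WT for *Bcl6* and at 6.41 and 8.15 for *Id3*. In WT the day 3 level was below that of day 0 (log2 ratios of -1.99 and -2.33), and in cKO it was close to it (-0.24 and 0.16).

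*Prdm1*, which encodes BLIMP1, the repressor that opposes BCL6, showed the reverse, with 3.66 in cKO and 11.1 in WT (-1.58). *Maf*, the factor that drives *Il4* and *Il21* expression in helper T cells, had 3.78 and 13.6, or about 163 and 550 fragments (-1.81, interval from -2.11 to -1.59). In WT both were above their day 0 level, by log2 ratios of 2.47 for *Prdm1* and 1.44 for *Maf*, and in cKO *Prdm1* was by 1.33 and *Maf* was not (-0.13). *Id2*, the other E protein inhibitor, had 52.1 and 122 (-1.22), and *Batf*, an AP-1 family factor, 97.0 and 169 (-0.80). *Tcf7* (47.2 and 22.3) and *Klf2* (14.9 and 5.87) had ratios of 1.08 and 1.33. Over the 16 measured TFH factors 10 ratios lay above 0 and the median was 0.14.

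Receptors and help molecules of TFH cells did not follow 1 direction. *Tnfsf4*, the ligand of the co-stimulatory receptor OX40, was higher at 14 in cKO and 4.77 in WT (1.53), and *Sh2d1a*, which encodes the adaptor SAP, had 29.5 and 11.3 (1.38). *Cd40lg*, the ligand that activates B cells, had 13.7 and 6.15 (1.14), and *Slamf6* 25.8 and 14.2 (0.85). *Il21*, the cytokine of TFH cells, was lower at 1.19 and 5.6, or about 19 and 82 fragments (-2.14, interval from -3.0 to -1.47). On day 0 *Il21* was almost absent in both genotypes (0.109 and 0.0442). The homing receptor *Cxcr5* had 2.2 and 3.29, and the inhibitory receptor *Pdcd1* 9.18 and 10.5. Of the 19 genes measured 13 had ratios above 0, 1 was higher and 1 lower, and the median was 0.35.

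**Figure D2:**
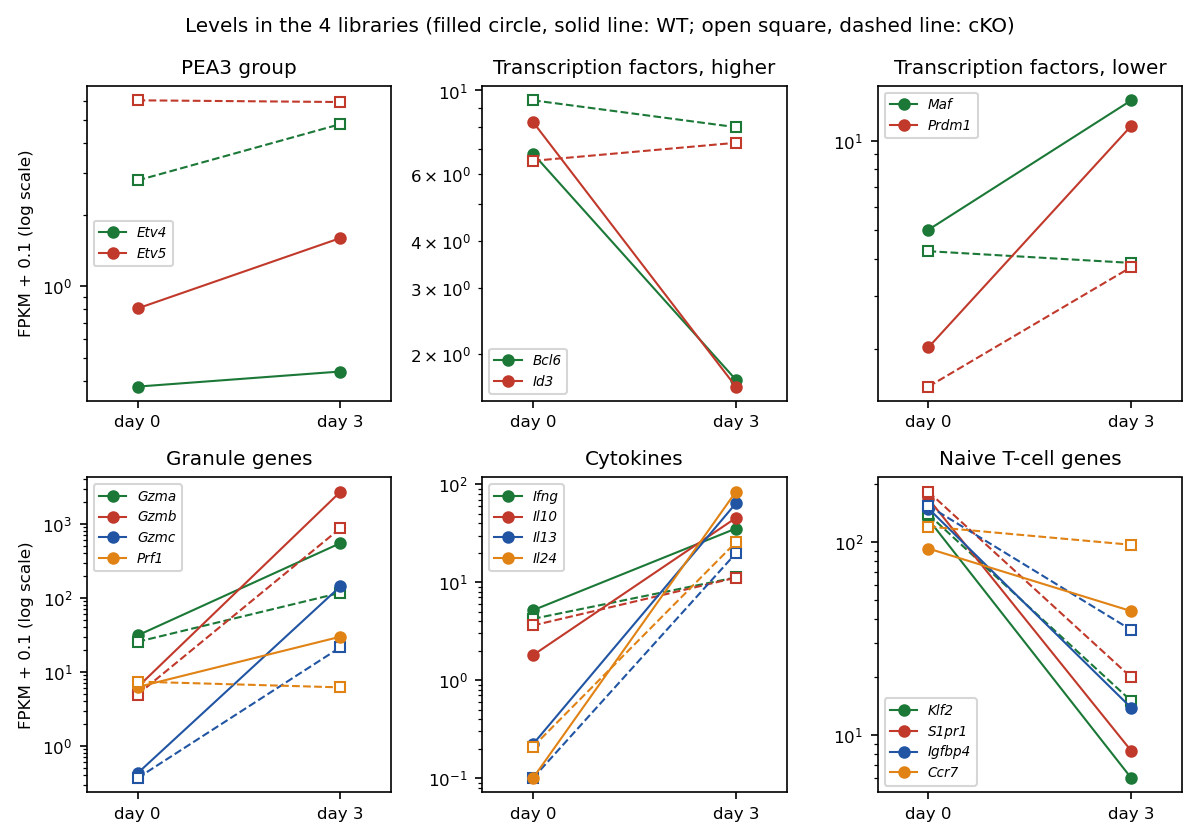
FPKM plus 0.1 (log scale) of 18 genes on day 0 and day 3 in WT (filled circles, solid lines) and cKO (open squares, dashed lines), 1 library for each point. *Etv4* and *Etv5* lie higher in cKO on both days, *Bcl6* and *Id3* are apart on day 3, at 7.89 and 7.17 in cKO against 1.61 and 1.54 in WT, and the 4 granule and 4 cytokine genes are all lower in cKO on day 3, with *Gzmc* at 21.4 and 143.

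Of 29 genes of naïve and quiescent T cells measured, 24 had ratios above 0 and 25 lay above the median of all genes, while none passed the size rule. Their median was 0.23. The largest ratios were those of *Pik3ip1* (4.72 and 1.77; 1.36), an inhibitor of PI3 kinase, *Igfbp4* (34.9 and 13.7; 1.34) and *Klf2* (1.33, above), followed by the egress receptor *S1pr1* (19.7 and 8.16; 1.27). *Ccr7*, the chemokine receptor for entry into lymph nodes, had 96.7 and 43.7 (1.14). *Il7r*, the receptor of the survival cytokine IL-7, had the lowest ratio of the list, at 28.3 and 41.6 (-0.55). On day 0 the same genes had a median of 0.07. *Trp53inp1*, from a list of FoxO, p53 and stress targets whose median was also 0.23, had 34.2 and 12.2 and a ratio of 1.48, just below the threshold.

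Genes of the TCR complex and its signalling had a median of 0.12 over 30 measured, and 1 of them was past the size rule. *Trat1*, which encodes the adaptor TRIM associated with the TCR, was higher in cKO at 47.7 against 12.1 in WT, or about 1538 and 367 fragments (1.97, interval from 1.81 to 2.15). On day 0 its levels were 54.7 and 38.6, so that the WT level was lower on day 3 than on day 0 by a log2 ratio of -1.66 and the cKO level by -0.20. *Txk*, a TEC family kinase, had 13.1 and 4.59 and a ratio just short of the threshold of 1.5, with 52.5 and 40.3 on day 0. *Cd4*, at 1.01 (0.84 on day 0), and *Sit1*, an inhibitory adaptor, at 6.82 and 3.71 (0.86), followed in this list.

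Of the other genes highest in cKO at an FPKM of at least 5, some were past the size rule on day 0 too and some were not. *Cldn10*, which encodes a tight junction protein, had 7.64 in cKO and was listed at 0 in WT, with 42.3 and 3.01 on day 0. *Dzip1*, whose deposited interval leaves no gap to that of *Cldn10*, had 3.88 and 0.848 (2.07). Reads of these genes may not be told apart. *Rbks*, the ribokinase gene, had 36.8 and 7.57, or about 312 and 60 fragments (2.27, interval from 1.89 to 2.71), with the order turned on day 0, at 6.19 and 14.7. *Nrn1*, which encodes neuritin, had 23 and 7.39 (1.63), *Nsg2* 21.6 and 7.38 (1.54), *Pdlim4* 7.23 and 2.37 (1.57) and *Inadl* 15.8 and 5.51 (1.51). *Myl4*, a myosin light chain gene, had 5.47 and 1.3, which rested on about 36 and 8 fragments. *Kdm5d* stands in this set as well and is the Y-linked gene named above. *Nop56*, at 6966 and 2491 (1.48), is just within the rule and is a locus that contains small nucleolar RNA genes, from which its level was not separated.

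Genes of cytotoxic granules were among those lower in cKO and included the most abundant of them. *Gzmb*, the main granzyme of activated lymphocytes, had 873 FPKM in cKO and 2712 in WT, a log2 ratio of -1.64. *Gzma* had 117 and 550 (-2.23), and *Gzmc* 21.4 and 143, or about 160 and 1006 fragments (-2.74, interval from -2.99 to -2.50). *Prf1*, which encodes the pore-forming perforin, had 6.09 and 29.8, or about 109 and 500 fragments (-2.27, interval from -2.60 to -1.99). The day 0 levels of these 4 genes were close in the genotypes, for instance 4.84 and 6.13 for *Gzmb* and 7.3 and 6.15 for *Prf1*, and the cKO level of *Prf1* was no higher on day 3 than on day 0 (-0.26, against 2.26 in WT).

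*Gzmd* (0.133 and 4.22), *Gzme* (0.542 and 2.72) and *Gzmf* (0.138 and 1.46) were also lower. These are near-identical copies among which reads can be divided wrongly, and their cKO values rest on about 1, 4 and 1 fragments. Of the 21 granzyme and granule genes measured, 7 were lower in cKO, 19 had ratios below 0 and the median was -0.45. The members past the size rule were 6 granzymes and perforin, whereas genes of granule structure and release stood closer to 0, such as *Srgn* (306 and 453; -0.57), *Lamp1* (47.3 and 48.7; -0.04) and *Unc13d* (21.2 in both). *Eomes*, a transcription factor that drives cytotoxic genes, had the highest ratio, at 21.4 and 13.6 (0.64). *Tbx21*, its relative, had 34.3 and 48.1 (-0.49). Beside these genes, *Cd8a* had the values 3.59 and 8.36 given above, *Cd8b1* 5.81 and 6.98, and the NK receptor gene *Klrd1* 6.37 and 6.07. Of 10 measured NK receptor and CD8 genes 9 had ratios below 0 and the median was -0.77. Lower by the size rule were 2 of them, *Klra7* (0.236 and 2.28) and the locus of several other *Klra* genes (0.297 and 1.12), which are near-identical copies, and *Fcgr3* had 0.614 and 1.67. *Ncr1*, a defining NK cell gene, was listed at 0 in both libraries. *Klrb1c*, another NK cell gene, had 0.387 in cKO and 0.912 in WT, below the level called measured. The part of NK or CD8 cells in the granule genes was not tested.

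**Figure D3:**
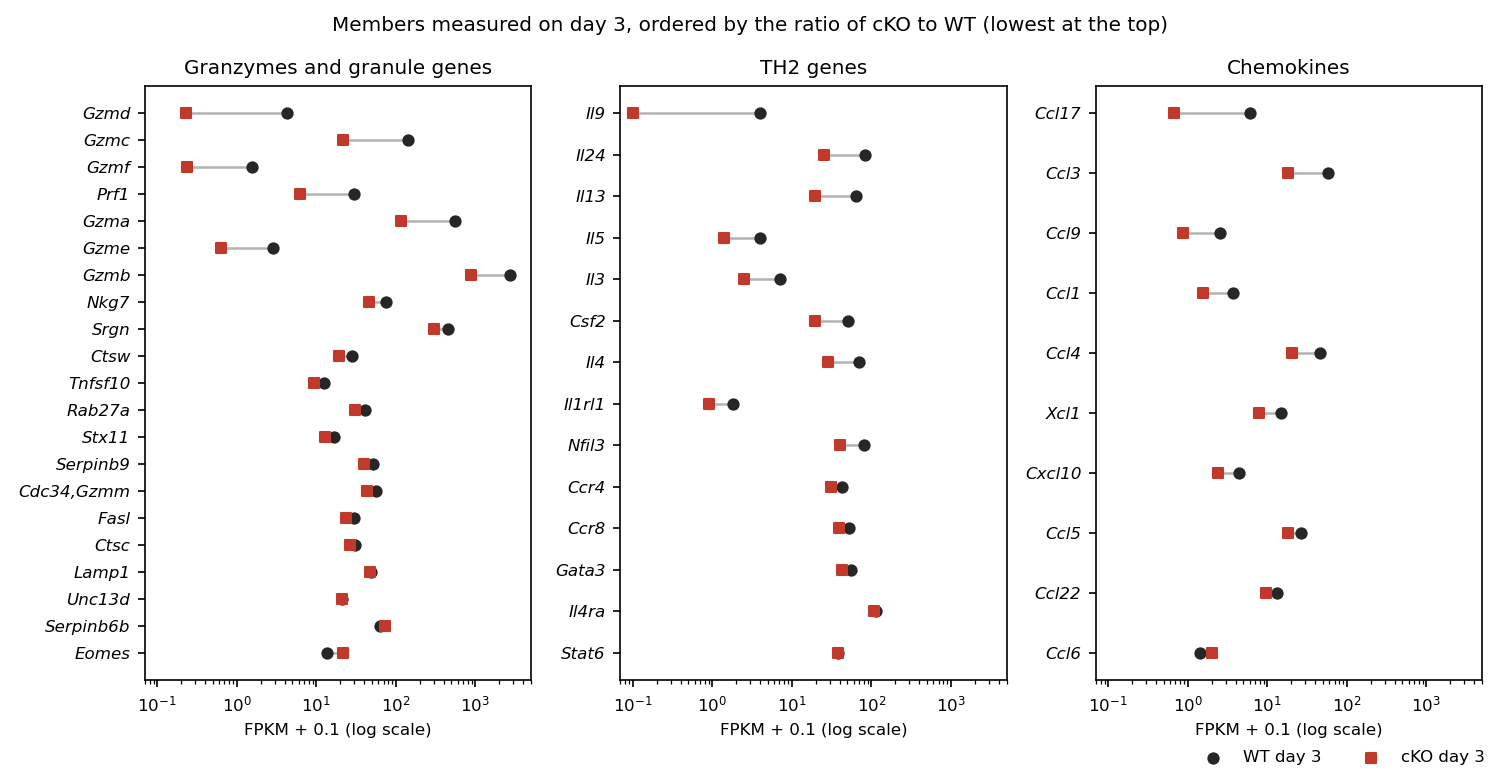
FPKM plus 0.1 (log scale) on day 3 of every measured member of 3 lists, in WT (black circles) and cKO (red squares), ordered by the ratio. The cKO value lies left of the WT value for 19 of 21 granule genes, 14 of 14 TH2 genes and 9 of 10 chemokines, with *Il9* listed at 0 in cKO and 3.91 in WT.

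All 14 measured genes of a TH2 list had ratios below 0, with a median of -1.17, and 4 were lower by the size rule. *Il13* had 19.7 in cKO and 63.9 in WT, or about 197 and 600 fragments (-1.69, interval from -1.94 to -1.46), and *Il24*, an IL-10 family cytokine, 25.5 and 83.8 (-1.71). *Il5* had 1.3 and 3.88 (-1.51), and *Il9* was listed at 0 in cKO and had 3.91 in WT, from about 14 fragments. *Il4* had 28.2 and 70.7 (-1.32), *Il3* 2.39 and 6.95 and *Csf2*, which encodes GM-CSF, 19.6 and 50.9 (-1.37), all within the rule. The factors of this lineage moved less, with *Gata3* at 42.1 and 54.7 (-0.37) and *Stat6* at 38.1 in both.

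Of cytokines of other lineages, *Ifng*, *Il10* and *Il22* were lower by the size rule. *Ifng*, the TH1 cytokine, had 11.1 in cKO and 35.3 in WT, or about 111 and 332 fragments (-1.66, interval from -1.99 to -1.36). *Il10*, an anti-inflammatory cytokine, had 11.0 and 45.3, or about 121 and 467 fragments (-2.03), and on day 0 its order was the reverse, at 3.52 and 1.7. *Il22* had 0.337 and 1.54, from about 3 and 13 fragments. *Il2* was nearer to equal, with 5.87 and 7.83 (-0.41). Ratios above 0 were those of *Tnf* (30.1 and 22.4; 0.42), *Lta* (10.3 and 7.8; 0.39) and *Ltb* (106 and 60.3; 0.82), which encode inflammatory and lymphoid tissue cytokines of the TNF family. In the TH1 list of 14, *Hlx* and *Ifng* were lower, *Hlx* from about 2 and 18 fragments, and 6 ratios lay above 0, the highest that of *Il18r1* (3.39 and 1.27; 1.34).

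Of 10 chemokine genes measured, 3 were lower in cKO and 9 had ratios below 0, with a median of -1.04. *Ccl3* had 18.3 and 57.1, or about 108 and 318 fragments (-1.64), and *Ccl4*, a related chemokine gene, 20.3 and 45.5 (-1.16). *Ccl17*, a ligand of CCR4 that dendritic cells also make, had 0.563 and 5.91, from about 2 and 20 fragments (-3.18), and *Ccl9* 0.782 and 2.45 (-1.53). *Ccl22*, the other CCR4 ligand, had 9.57 and 13.2 (-0.46). Among chemokine and homing receptors, *Ccr1* (0.119 and 1.14) and *Gpr15* (0.74 and 3.72) were lower and *Ccr6* (1.27 and 0.208) higher, all at low levels.

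Surface receptors added further differences. *Tnfrsf8*, which encodes CD30, had 11.7 in cKO and 43.7 in WT, or about 346 and 1216 fragments (-1.90, interval from -2.08 to -1.73), and was almost absent on day 0 in both (0.0742 and 0.0408). It and *Tnfsf4* were the only genes of the TNF superfamily past the size rule among 25 measured, whose median was 0.07. *Lilrb4*, an inhibitory receptor with ITIM motifs, had 28.3 and 91.5 (-1.69), and the related *Gp49a* beside it, from which reads may not be told apart, 25.1 and 71.7 (-1.51). *Havcr2*, which encodes TIM-3, had 5.78 and 16.4 (-1.49) and *Lag3* 22.3 and 40.0 (-0.84), while *Ctla4* had 161 and 127 (0.33). Of 16 inhibitory receptors measured 14 had ratios below 0. *Csf2rb*, the common β chain of the receptors of IL-3, IL-5 and GM-CSF, had 1.36 and 7.51, or about 59 and 303 fragments (-2.38), and *Il2ra*, the α chain of the IL-2 receptor, 344 and 508 (-0.56). *Csf2rb* and *Fcer1g* (2.45 and 8.81) are also genes of basophils and mast cells, whose levels are given above.

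Transcription factors lower in cKO included *Batf3* (6.48 and 23.4; -1.84), an AP-1 family factor, *Zbtb32* (9.14 and 29.1; -1.66), a repressor induced in activated lymphocytes, and *Mycn* (0.435 and 1.61; -1.68). *Myc* itself had 77.8 and 79.4. *Gem*, which encodes a small GTPase, had 3.39 and 11.1 (-1.69). *Ubd*, which encodes the ubiquitin-like modifier FAT10, had 0.666 and 10.7, or about 5 and 75 fragments (-3.82, interval from -5.66 to -2.71). *Akr1c18*, which encodes a progesterone-metabolizing enzyme and is a basophil marker as well, had 8.28 and 45.6 (-2.45), and *Adam8*, a membrane protease gene, 4.07 and 16.1 (-1.96). *Ifitm3,Ifitm6*, a pair of interferon-inducible genes deposited as 1 locus, had 3.54 and 20.8 (-2.53) and were as far apart on day 0 (2.49 and 18.4). Of 42 interferon-stimulated genes measured, by contrast, 30 had ratios above 0 and the median was 0.11. Loci that hold small RNAs stood at this end too, with *Meg3,Mir1906-2,Mir770* and *AF357399* listed at 0 in cKO and 37.3 in WT, and *Snhg6,Snord87* at 157 and 818.

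The level before stimulation was looked at for genes that reached 5 FPKM on day 3, which the called genes did through the library in which they are high. Of the 36 such genes lower in cKO, 15 (41.7%) had an FPKM below 1 in both day 0 libraries, as had 3 of the 15 higher in cKO (20%) and 160 of all 8031 genes of that level (1.99%). The median day 0 level was 2.17 in WT and 1.48 in cKO for the lower genes and 6.7 and 9.32 for the higher genes. For all genes of that level it was 12.46 in WT and 12.47 in cKO. These differences were not tested. Genes past the size rule at both times in 1 direction were counted only where either day 0 library had an FPKM of at least 1. This left out 65 of the 117 lower genes and 19 of the 60 higher genes. How often all genes pass the rule on day 0 was not set beside the counts. With small RNA genes left out, 3 genes were higher at both times (*Etv4*, *Etv5* and *Cldn10*) and 13 were lower. Among the lower genes were *Car1*, *Klf1*, *Fcer1g*, *Clec7a* and *Pparg*, the first 4 of which are in the lists of other cells.

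Some called genes were neighbours in the genome. Within 100 kb of each other lay 19 pairs of lower genes, made of 26 of the 117, and 1 pair of higher genes, *Cldn10* and *Dzip1*, and how many pairs other genes form was not tested. The granzyme cluster on chromosome 14 supplied 9 of the 19 pairs, from *Ctsg* through *Gzme*, *Gzmd*, *Gzmf* and *Gzmc* to *Gzmb* (chromosome 14, 56258858 to 56262260). Others were *Il10* and *Il24* on chromosome 1, *Il13* and *Il5* in the TH2 cytokine locus on chromosome 11, *Ccl9* and *Ccl3* on chromosome 11, *Lilrb4* and *Gp49a* on chromosome 10, and *Car1* and *Car2* on chromosome 3. Many of these are duplicated genes, whose reads may not be told apart. This can also hold for *Cldn10* and *Dzip1*, whose deposited intervals leave no gap.

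**Figure D4:**
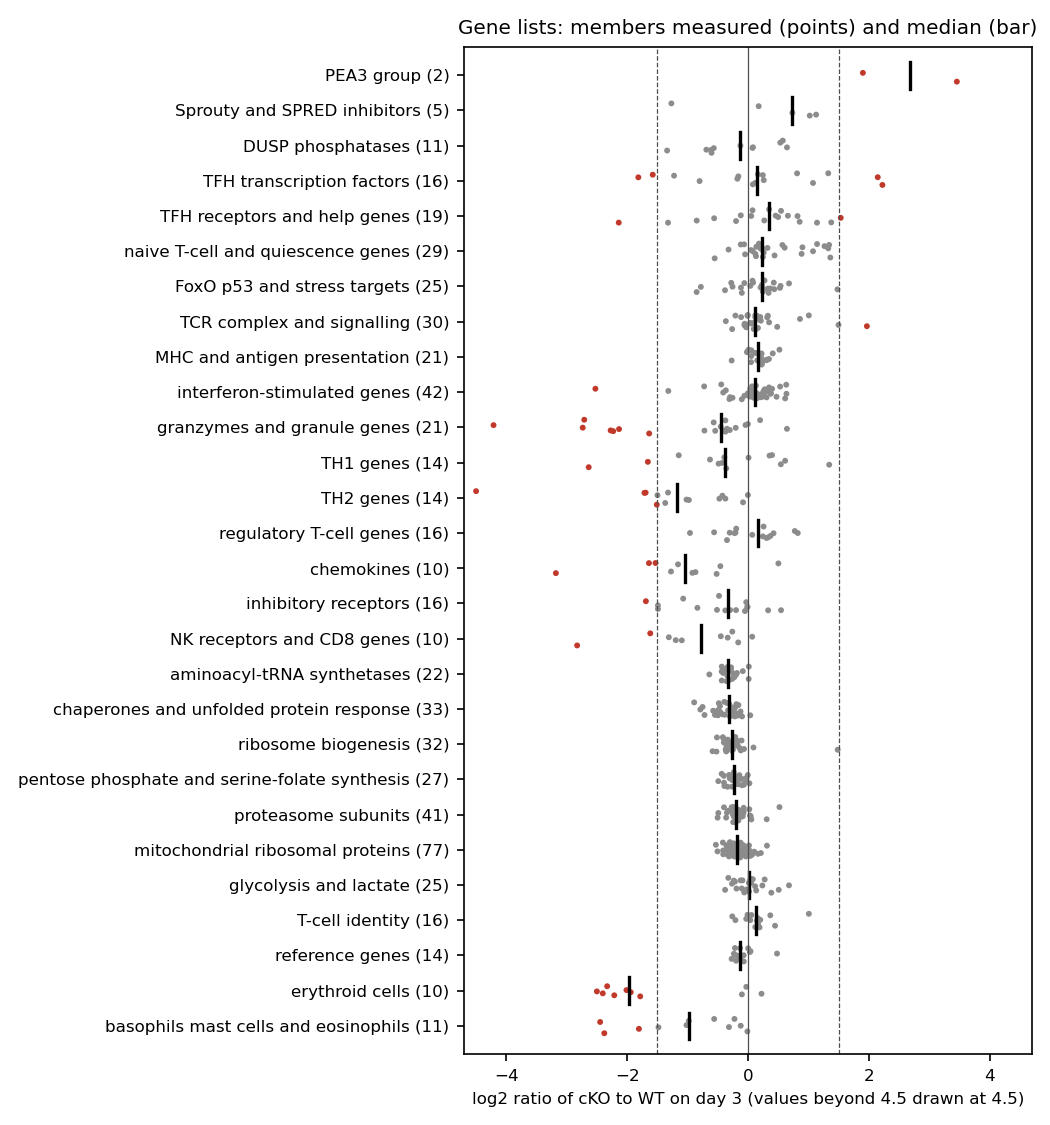
Log2 ratio of cKO to WT on day 3 for each measured member of 28 gene lists (points, red where past the size rule), with the list median as a bar and the number measured in brackets. Dashed lines mark 1.5 either way, values beyond 4.5 are drawn at 4.5, and the medians run from 2.68 for the PEA3 group to -1.98 for erythroid genes.

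Housekeeping lists of growth and protein synthesis showed small ratios that mostly shared a sign, and were read against the median of all genes. Of 22 aminoacyl-tRNA synthetase genes, which charge tRNAs with amino acids, 20 lay below that median, with a list median of -0.33 and no member past the size rule. *Kars*, for instance, had 96.2 in cKO and 121 in WT. Of 33 chaperones and genes of the unfolded protein response 32 lay below it (list median -0.31), such as *Creld2* (24.6 and 42.6), *Manf* (42.2 and 69.6) and the stress sensor *Ern1* (3.91 and 7.34). Of 32 genes of ribosome biogenesis 30 did (-0.27), with *Nop56* one of the exceptions, and of 27 genes of the pentose phosphate pathway and of serine and folate metabolism 23 did (-0.24), such as *Psat1* (85.7 and 121).

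Proteasome subunits (35 of 41 below the median of all genes, list median -0.19) and mitochondrial ribosomal proteins (63 of 77, -0.18) had smaller ratios. The immunoproteasome subunits *Psmb8* (345 and 279) and *Psmb9* (182 and 127), which trim peptides for MHC class I, went the other way. So did genes of MHC and antigen presentation, with 20 of 21 above the median of all genes (list median 0.17), for example *H2-K1* at 658 and 558. Glycolysis genes were close to equal, with a median of 0.02 over 25 measured, and so were those of mitosis (-0.08 over 30). DNA replication genes had a median of -0.13, with 25 of 33 below the median of all genes, and a median of -0.23 on day 0. Reference genes had a median of -0.13 over 14, between *Hprt* at -0.27 and *Rpl13a* at 0.48. With 1 library for each genotype the error of a list median is unknown.

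On day 0 the medians of the same lists were 0.01 for aminoacyl-tRNA synthetases, -0.11 for chaperones, -0.19 for ribosome biogenesis and 0.23 for MHC genes. Of 14 amino acid transporters measured none was past the size rule and 4 had ratios above 0, with a median of -0.20 and the highest ratio in *Slc7a7* (1.13 and 0.455; 1.15). Among the more abundant, the day 3 ratios were -0.70 for *Slc7a5* (29.7 and 48.2), -0.63 for its partner *Slc3a2* (38.6 and 59.9) and -0.51 for *Slc1a5* (40.9 and 58.4), against -0.08, -0.18 and 0.06 on day 0. Of 16 regulatory T-cell genes measured none was past the size rule, with *Foxp3*, their lineage factor, at 2.06 and 1.12 (0.82).

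Genes nearest to the threshold show how little separates a call from none. *Inadl* (1.51) and *Kdm5d* (1.52) were just inside and *Txk* (13.1 and 4.59) just outside on the higher side, and on the lower side *Il5* (-1.51) and *P2ry14* (-1.51) were inside while *Il3* (2.39 and 6.95), *Cd244* (-1.49) and *Havcr2* (-1.49) were outside.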

How the data were processed

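Members and gene lists were chosen with earlier results of these data known. TruSeq libraries were sequenced on a NextSeq 500. According to the methods and the submitters' processing notes, the authors mapped reads with TopHat2 2.0.10 and estimated FPKM with Cufflinks 2.1.1, giving mm9 as build. The starts or ends of the deposited loci equal those of GRCm38.p6 for 57.9% of 21550 genes and of mm9 for 1.11% of 20194, so positions are read as GRCm38. The authors deposited FPKM values in 1 table for WT and 1 for cKO, which were normalized separately, so a ratio can carry a shift common to all genes. Weakly expressed loci put 1 fragment at 0.946 times the FPKM in cKO as in WT. Another 18 tables, with the authors' comparisons and annotation terms or with pooled means, were not used.

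Names came from the cKO table, as 25 had become dates in the other. Where a name stood on more than 1 locus (411 names), the locus with the highest mean over the libraries stands for it. Loci without a name hold 86.1% of the summed FPKM in WT and 89.2% in cKO. Loci overlap, 3060 of the measured genes share their interval with another gene, and strand was not used. An FPKM of 0 can be a failed estimate. The 64 lists were described by counts and medians. The rule for genes named took the PEA3 and CIC lists, the 20 highest and 20 lowest genes with an FPKM of at least 5, and in each list members past the size rule, up to 4 of the largest ratios and the most abundant. Some genes beside these were named for context after their values were seen. The calculation was tested on simulated data. Other settings changed the pseudocount (1, 0.01), the minimum level (5 FPKM, none), the size threshold (1), the set of loci, and the centre, which was moved to the median gene or the median ribosomal protein gene. Added after the data were seen were a minimum of 20 fragments and leaving out genes listed at 0 or lists of other cells and sex-linked genes. Transcript lengths came from GENCODE M1 and promoters from RefSeq. Values were computed with pandas 2.3.3, numpy 2.4.6 and scipy 1.17.1 under Python 3.11.15 and drawn with matplotlib 3.10.9. Some withheld genes are not reported here.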

Additional observations from a re-analysis of the deposited data

Results flagged for a closer look

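Genes past the size rule in 1 direction on day 0 and in the other on day 3 were looked for. Small RNA genes were left out, as were genes with an FPKM below 1 in both libraries of either day, and 2 were found. With 1 library for each condition the difference between the days was not tested. *5730408K05Rik,Mir5136*, a locus that carries a microRNA name, had a log2 ratio of cKO to WT of -3.54 on day 0, at FPKM values of 15.0 and 176, and of 2.08 on day 3, at 161 and 38.2. *Cldn20*, a claudin gene, had a log2 ratio of -3.75 on day 0 and of 1.53 on day 3, where it stood at 1.42 in cKO and 0.428 in WT.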

How the results depend on the processing

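The number of genes higher in cKO on day 3 (81) and of genes lower in cKO on day 3 (132) depended on how low values were treated. With a pseudocount of 1 they were 29 and 48, with an FPKM minimum of 5 they were 36 and 49, without a minimum 238 and 371, and with a threshold of 1 they were 228 and 279. Loci without a gene name raised them to 578 and 379, which also turned the larger share to the higher side. Without loci of several names or shared intervals 47 genes were higher, and 99 lower. With at least 20 estimated fragments, a setting chosen after the data were seen that also drops small RNA genes and genes without a transcript length, 28 were higher and 73 lower. A pseudocount of 0.01, both centrings, and leaving out small RNA genes, genes listed at 0, or lists of other cells and sex-linked genes kept each count within 1.5 times. Centring moved ratios by 0.05 (median gene) or 0.06 (ribosomal proteins). A pseudocount cannot change which library is higher, and shifts this small cannot turn a ratio past the size rule. These settings therefore do not test the direction of a called gene. List medians near 0 turned sign under some settings, among them those of the MYC network (-0.03, and 0.02 centred on the median gene) and of regulatory T-cell genes (0.16, and -0.20 with an FPKM minimum of 5). No paired analysis was possible because each condition has 1 library.

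Fragment numbers are estimates, genes below about 20 fragments have wide counting intervals, and no value here measures the variation between mice or cultures.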

Other observations

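Beyond the lists, the genes lower in cKO on day 3 included some of lipid mediators and of the matrix, which were picked out after their values were seen. *Pparg*, which encodes a lipid-activated nuclear receptor, had 0.745 FPKM in cKO against 3.62 in WT (log2 ratio -2.14), and 0.524 and 1.78 on day 0 (-1.59). *Ptgs1*, which encodes cyclooxygenase 1, had 0.118 and 1.08, and *Ptger3*, a receptor of prostaglandin E2, 0.573 and 2.34. *Thbs1* (0.771 and 3.03), *Timp3* (0.541 and 2.22) and *Mmp12* (0.74 and 2.71) encode proteins of the extracellular matrix or its turnover, and *Hbegf* (1.15 and 3.75) and *Inhba* (0.767 and 2.84) encode secreted growth factors. Nearly all lie below an FPKM of 4 in WT, and some are also genes of myeloid cells, whose part in these values was not tested. Among the higher genes of low level, *Dntt*, which encodes the terminal transferase of developing lymphocytes, had 1.21 and 0.351 (1.53), with 3.85 and 2.21 on day 0, and *Nod1*, an intracellular sensor of bacterial peptidoglycan, 3.76 and 1.17 (1.61), with 8.69 and 8.39 on day 0.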
